A study of Mus musculus with 11 samples.

Results

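The 7 miRNAs described here, mmu-miR-142-5p, mmu-miR-150, mmu-miR-342, mmu-miR-223, mmu-miR-155, mmu-miR-146 and mmu-miR-146b (the prefix mmu- is left out below), are known mainly from cells of the immune system. They were chosen by name among the mouse probes of a custom miRNA array, where they held 28 of 1336 spots (4 spots each) and made up 7 of the 334 miRNAs, and all 7 passed the filter on background. The array was hybridised with total RNA from 3 C3(1)/Tag mammary tumors and from normal mammary glands of late-pregnant mice of 3 strains, FVB (2 arrays), Balb/C (3 arrays, labelled Balbc) and FVB129B6 (3 arrays). The C3(1)/Tag tumors, labelled C3TAg, were primary mammary tumors of transgenic FVB females. Their SV40 T antigens are driven by C3(1), a promoter taken from a rat gene that works in the cells of mammary ducts. The glands came from mice with no transgene given in the sources used here. The ages of the mice are not given there either. The study's methods state that tumors came from individual mice, but for the glands the sources used here do not say whether each array held RNA of its own animal, so p-values that rest on glands measure the spread between these arrays. The titles of Balb/C replicates 2 and 3 differ only in a final L or R. Levels are log2 green intensities over the median of the array, so a level of 0 is the median spot.

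MicroRNAs are short RNAs that lower the output of mRNAs matched by their seed, bases 2 to 8 from the 5′ end. In blood, miR-142 is made by nearly all leukocytes, miR-150 and miR-342 are abundant in lymphocytes, and miR-223 belongs to granulocytes and other myeloid cells. miR-155 and the miR-146 family rise when NF-kB is switched on. miR-155 favours the activation of lymphocytes and macrophages, while miR-146a damps NF-kB signalling by acting on adaptor proteins of the Toll-like receptor pathway. A late-pregnant gland holds epithelium, fat, vessels, blood and resident leukocytes, and some glands enclose a lymph node. In bulk RNA such as this, fewer cells of a type and less of a miRNA per cell cannot be told apart.

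The mature sequences show what each probe read, and 6 of the 7 members matched a RefSeq entry (GRCm38.p6) through their probe. They are written 5′ to 3′ with the seed in capitals.
miR-142-5p: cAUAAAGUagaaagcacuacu
miR-342: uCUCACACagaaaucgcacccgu
miR-223: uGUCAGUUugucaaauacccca
miR-155: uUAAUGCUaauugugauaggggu
miR-146: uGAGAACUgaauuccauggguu
miR-146b: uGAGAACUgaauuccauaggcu
The array's miR-146 matched miR-146a-5p in full, and miR-342 and miR-223 matched the 3p arms. The probe for miR-142-5p shared a run of 20 of the 21 RefSeq bases, and that for miR-223 a run of 21 of 22. miR-142-5p lies at chr11:87756867-87756887 on the plus strand. miR-342 lies at chr12:108658680-108658702 within the span of Evl, a gene for an actin regulator, and miR-155 at chr16:84714143-84714165 within its host gene Mir155hg. miR-223 lies at chrX:96242884-96242905, miR-146 at chr11:43374435-43374456 on the minus strand and miR-146b at chr19:46342790-46342811. Only miR-146 and miR-146b shared a seed, GAGAACU, among the 6 sequences. Counted from the 5′ end, miR-146b differs from miR-146 by G18A and U21C, so their probes were 2 base edits apart and could share signal. The nearest other probe of each of the other 5 members was 7 to 10 edits away.

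All 7 members were well above background with all 4 spots on all 8 gland arrays, and the plot of levels by array shows each member on its own scale. Array medians of the green intensity ran from 188.5 to 245.5 for FVB, from 508 to 583 for Balb/C and from 520.5 to 671.5 for FVB129B6 glands. On the tumor arrays it was 125 to 170, close to the 117 to 163 of their negative controls. No spot was saturated. The 4 spots of a member spanned a median of 0.15 on the log2 scale on the gland arrays (0.03 to 0.76) and 0.68 on the tumor arrays (0.03 to 2.16). The tumors lay on a slide of their own, so slide and tissue cannot be told apart, and the FVB glands had a slide column to themselves.

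**Figure D1:**
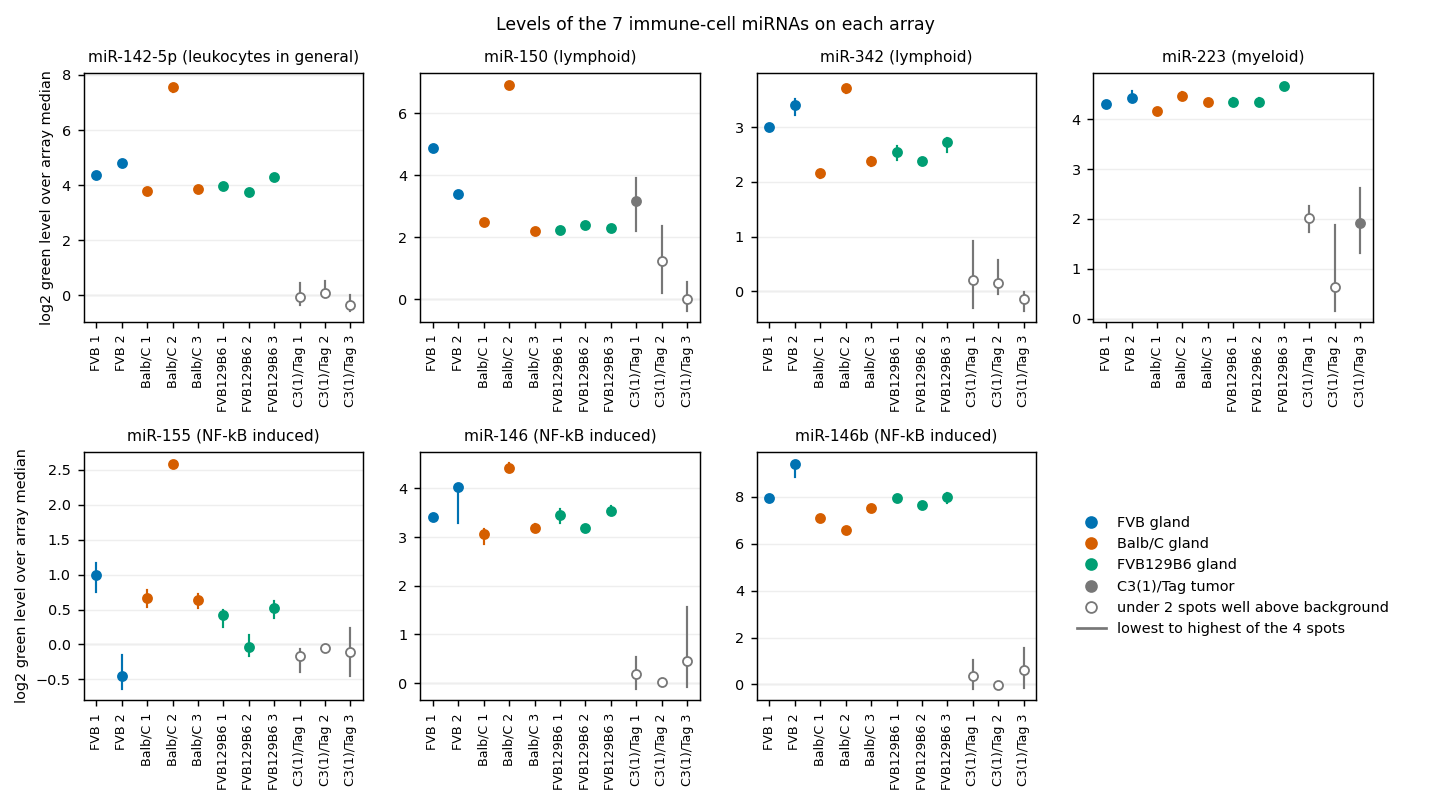
Level of each of the 7 miRNAs on the 11 arrays, as the log2 green intensity over the array median (each panel has its own y axis). Points are means over the unflagged spots and bars run from the lowest to the highest of the 4 spots. Balb/C replicate 2 stands above all other glands for miR-142-5p, miR-150, miR-342, miR-155 and miR-146, but not for miR-223 or miR-146b, and nearly all tumor values are not well above background.

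For the general leukocyte miRNA 1 of the 8 glands stood far above the rest. miR-142-5p stood at 4.36 and 4.81 in FVB, at 3.98, 3.77 and 4.29 in FVB129B6, and at 3.78, 7.57 and 3.85 in Balb/C glands. Both FVB arrays lay above the 5 glands other than Balb/C replicate 2, and the SD over the 7 glands without that array was 0.39. In intensity, Balb/C replicate 2 gave 100000 as the median of its spots, against 8010 and 8065 in the other 2 Balb/C arrays. All 4 of its spots lay between 84200 and 102000, so no single spot carried the value. In the remaining glands the median of the spots ran from 5040 to 10450. That array was 3.75 above the mean of Balb/C replicates 1 and 3, a 13.5-fold difference within 1 group.

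Among the lymphoid miRNAs, miR-150 varied most. It stood at 4.86 and 3.41 in FVB, at 2.22, 2.39 and 2.28 in FVB129B6, and at 2.48, 6.90 and 2.21 in Balb/C glands. The FVB129B6 arrays lay close together, whereas the 2 FVB arrays differed by 1.46 and Balb/C replicate 2 exceeded the other Balb/C arrays by 4.56, or 23.5-fold. In intensity, that array read 60900 for miR-150 against 3230 and 2570. For miR-342 the levels were 3.01 and 3.41 in FVB, 2.55, 2.38 and 2.72 in FVB129B6, and 2.16, 3.73 and 2.39 in Balb/C, with Balb/C replicate 2 again the highest of the 8 glands. In the FVB pair the 2 lymphoid miRNAs went opposite ways, by 1.46 for miR-150 and -0.40 for miR-342 (replicate 1 minus replicate 2).

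The myeloid miR-223 was nearly constant relative to the array median. Its levels were 4.31 and 4.43 in FVB, 4.34, 4.35 and 4.67 in FVB129B6, and 4.16, 4.47 and 4.34 in Balb/C glands, and the 3 strains overlapped. Its SD over the 8 glands was 0.15, against 1.27 for miR-142-5p, 1.70 for miR-150, 0.55 for miR-342, 0.90 for miR-155, 0.47 for miR-146 and 0.82 for miR-146b. Balb/C replicate 2 was 0.22 above the other Balb/C arrays for miR-223.

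The NF-kB-induced miRNAs did not move as a group. miR-155 stood at 1.00 and -0.46 in FVB, 0.42, -0.04 and 0.53 in FVB129B6, and 0.67, 2.58 and 0.63 in Balb/C glands. miR-146 stood at 3.42 and 4.03 in FVB, 3.44, 3.18 and 3.54 in FVB129B6, and 3.05, 4.43 and 3.19 in Balb/C. Both were highest in Balb/C replicate 2, by 1.93 and 1.31 over the mean of the other 2 Balb/C arrays (3.81-fold and 2.47-fold). For miR-155 the FVB arrays spanned those of FVB129B6 and Balb/C replicates 1 and 3, while the FVB129B6 arrays all lay below the Balb/C arrays. miR-146b ran the other way, at 7.96 and 9.41 in FVB, 7.96, 7.66 and 7.98 in FVB129B6, and 7.09, 6.59 and 7.52 in Balb/C, where replicate 2 was the lowest of all glands. One of the 4 spots of miR-146 and of miR-146b on FVB replicate 2 was marked as an outlier and left out of these means.

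Differences between 2 members on the same array are unchanged by any scaling that takes 1 constant from all spots of that array. Relative to miR-223, miR-142-5p ranged from -0.59 to 0.38 on the other 7 glands and stood at 3.09 on Balb/C replicate 2. For miR-150 the range was -2.38 to 0.56 against 2.43, for miR-155 -4.89 to -3.31 against -1.89, for miR-342 -1.99 to -1.02 against -0.74, and for miR-146 -1.17 to -0.40 against -0.04. On Balb/C replicate 2 each of these 5 thus lay outside the range of the other glands, on the high side, while miR-146b minus miR-223 lay outside it on the low side, at 2.12 against 2.94 to 4.98. The members of the miR-146 family were 4.04 to 5.38 apart on 7 glands and 2.16 apart on Balb/C replicate 2. The difference between miR-142-5p and miR-342 varied little, at 1.35 to 1.61 on 7 glands and 3.84 on Balb/C replicate 2.

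**Figure D2:**
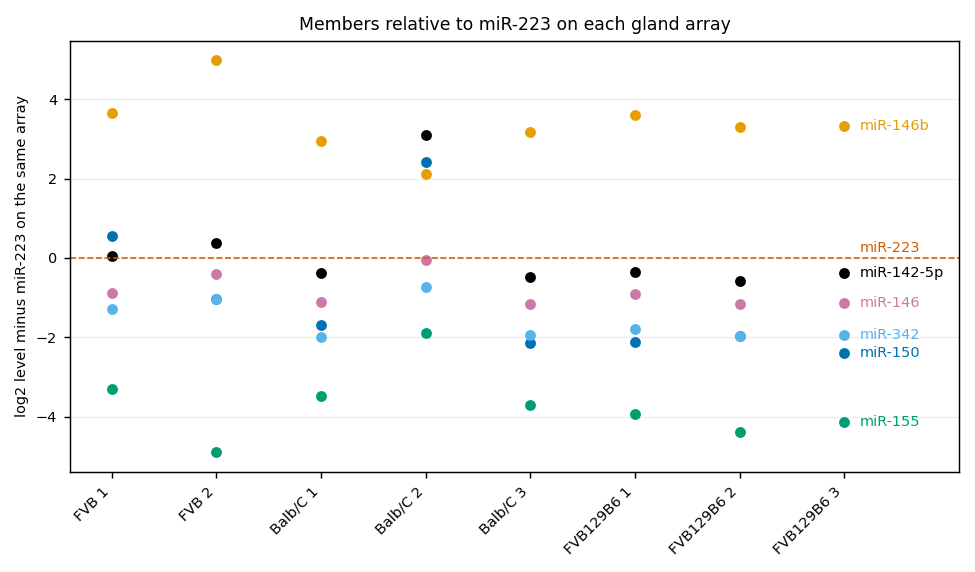
Level of 6 members minus the level of miR-223 on the same array (log2), for the 8 gland arrays, with miR-223 itself as the dashed line at 0. On Balb/C replicate 2, miR-142-5p and miR-150 rise to 3.09 and 2.43 while miR-146b falls to 2.12.

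Set against all 261 miRNAs tested, Balb/C replicate 2 differed from the mean of the other 2 Balb/C arrays by a median of -0.05, with quartiles at -0.25 and 0.26. miR-150 and miR-142-5p held ranks 1 and 2 in this ordering, miR-155 rank 5, miR-342 rank 7, miR-146 rank 8, miR-223 rank 73 and miR-146b rank 244. In all, 13 of 261 miRNAs (4.98%) exceeded 1, and 5 of the 13 were members. Between Balb/C replicates 1 and 3, 0 members differed by over 1 in either direction, where 18 of the 261 miRNAs were over 1 and 5 under -1. Against the highest of the other 7 glands, Balb/C replicate 2 stood 2.76 higher for miR-142-5p, 2.03 for miR-150 and 1.58 for miR-155, and these were 3 of the 4 miRNAs that exceeded 1. It stood only 0.40 higher for miR-146 and 0.32 for miR-342, and 0.20 below the highest gland for miR-223. These ranks describe 1 array and carry no test. Among the settings that can change ranks within an array, miR-150 and miR-142-5p held ranks 1 and 2 under quantile normalization, normexp and the ratio of green to red. In that order of settings miR-155 held ranks 5, 3 and 6, miR-342 ranks 7, 4 and 12 and miR-146 ranks 10, 5 and 17. The difference of miR-150 was at least 4.17 in all scalings tried.

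**Figure D3:**
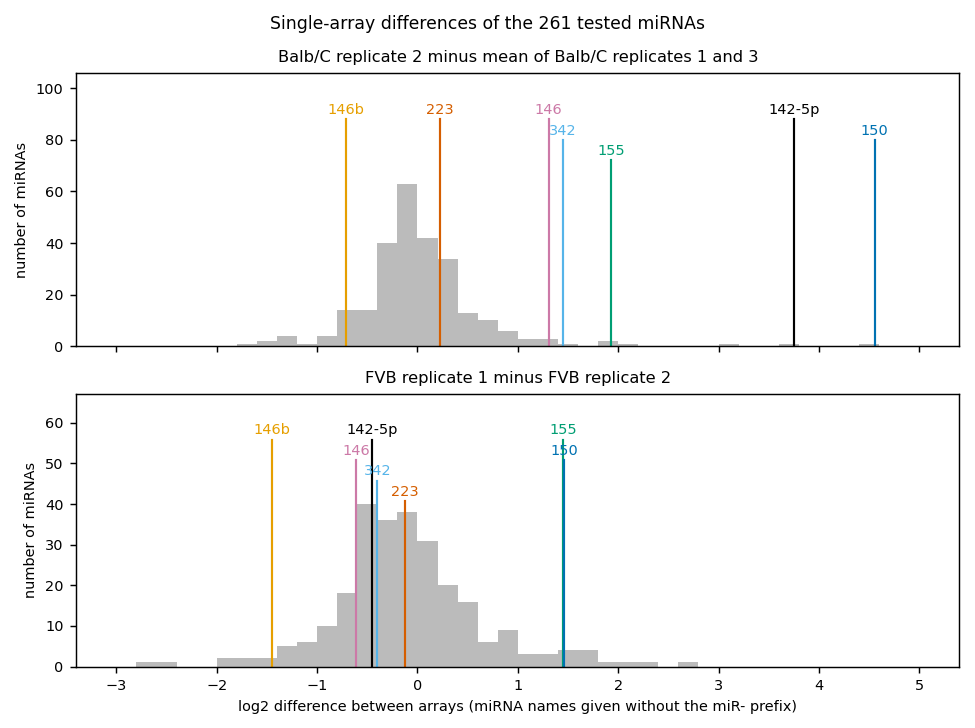
Histograms of single-array log2 differences over the 261 tested miRNAs, with the members as coloured lines. In the upper panel (Balb/C replicate 2 minus the mean of replicates 1 and 3) miR-150 and miR-142-5p lie farthest right, at 4.56 and 3.75. In the lower panel (FVB replicate 1 minus replicate 2) miR-150 and miR-155 lie at 1.46 and 1.45 and miR-146b at -1.45.

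The 2 FVB arrays also differed for some members. On FVB replicate 1, miR-150 and miR-155 were 1.46 and 1.45 above FVB replicate 2, ranks 9 and 10 of 261, while miR-142-5p, miR-342, miR-223 and miR-146 were 0.45, 0.40, 0.13 and 0.61 below it. miR-146b was 1.45 below it, rank 255. The median over all miRNAs was -0.16. Balb/C replicate 2 and FVB replicate 1 both lay in row 1 of the slide and the arrays they were set against in row 2, so in both contrasts array and row cannot be told apart. Within the FVB129B6 glands, row 1 (replicates 1 and 3) minus row 2 (replicate 2) was 0.51 for miR-155, -0.14 for miR-150 and 0.37 for miR-142-5p. Row 1 was thus higher in all 3 strains for miR-155, whereas the sign differed between strains for miR-150 and miR-142-5p.

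The miRNA lists for other cell types moved on Balb/C replicate 2 as follows. The 3 other leukocyte miRNAs on the array, miR-181a, miR-181b and miR-181c, were 0.12, 0.39 and 0.39 lower there than the mean of the other 2 Balb/C arrays. All 7 epithelial miRNAs were lower, by a median of 0.72. Their summed level, to which miR-200a and miR-200b gave the most, was 8.06 against 8.61 and 8.94, and all 7 stayed well above background. All 3 erythroid miRNAs were higher, by a median of 0.66, with a summed level of 8.72 against 8.27 and 7.67 that came mainly from miR-451. The 6 other inflammatory miRNAs had a median of -0.08, the 2 stromal miRNAs (miR-143 and miR-145) of -0.32 and the 3 skeletal muscle miRNAs of 0.20. miR-126-5p of endothelium was 0.42 higher and dim. The part of these shifts in the levels of the members was not tested.

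Over the 8 glands, miR-146b was most like miR-200c of epithelium (Pearson's r = 0.99) and miR-181b, one of the other leukocyte miRNAs (r = 0.99), and without Balb/C replicate 2 both coefficients were again 0.99. miR-150 was most like miR-363 (r = 0.97) and miR-16 (r = 0.91), and miR-142-5p was most like miR-363 (r = 0.90) and miR-130b (r = 0.89). miR-342 followed miR-363 (r = 0.92) and miR-15b (r = 0.92), miR-146 followed miR-15b (r = 0.89) and miR-363 (r = 0.85), miR-155 followed miR-374-5p (r = 0.92) and miR-20b (r = 0.82), and miR-223 followed miR-106a (r = 0.82) and miR-17-5p (r = 0.77). miR-363 was well above background on only 3 of the 8 glands, so its coefficients rest largely on background values. All of these are descriptions over 8 arrays of 1 slide that share their scaling. Without Balb/C replicate 2 the coefficient of miR-142-5p with miR-130b was 0.34 and that of miR-155 with miR-20b was 0.49, so these 2 rest on that array. Between members, miR-142-5p and miR-155 had r = 0.77 over 8 glands and -0.38 without that array, while miR-142-5p and miR-342 had 0.86 and 0.98. miR-146 and miR-146b had 0.07 over 8 glands and 0.98 without it. Their probes could share signal, and how far that enters these coefficients was not tested.

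The study asked whether strains differ in the miRNAs of the normal gland. limma's moderated F-test with Benjamini-Hochberg adjustment called 1 of the 7 members, miR-146b (adjusted p = 0.0454), where 46% of the 261 tested miRNAs were called. That call was lost without any 1 of the 3 FVB129B6 arrays, Balb/C replicates 1 or 2, or FVB replicate 2 (adjusted p = 0.0755 to 0.0993, limma). The F-test call was also lost with Balb/C replicates 2 and 3 averaged (adjusted p = 0.0541, limma), with the replicate block and under all other scalings tried. In Balb/C against FVB glands, 37.9% of all miRNAs were called, 5.75% higher and 32.2% lower. miR-146b was the one member called. Balb/C glands averaged 7.07 ± 0.46 (SD, n = 3) and FVB glands 8.69 ± 1.03 (SD, n = 2), and the log2 difference was -1.62 ± 0.44 (SE, adjusted p = 0.0229, limma). The call was lost without FVB replicate 2 (-0.89, adjusted p = 0.108, limma) and without Balb/C replicate 2 (-1.38, adjusted p = 0.0557, limma). It was also lost under 75th percentile scaling (-1.19, adjusted p = 0.0700, limma), scaling on miRNAs above background on all glands (-1.17), quantile normalization (-0.90), normexp (-0.81), the ratio of green to red (-1.17) and without normalization (-0.27), and over all 30 alternatives the difference ran from -2.35 to -0.27. Between FVB129B6 and FVB glands 0 members were called, where 39.5% of all miRNAs were (8.05% higher and 31.4% lower), and miR-146b was called lower only without FVB replicate 1 (-1.55, adjusted p = 0.0168, limma). Between Balb/C and FVB129B6 glands 0 members were called, where 3.45% were (1.15% higher and 2.3% lower). Medians over the 7 members were -0.17, -0.57 and 0.21 in these 3 comparisons, in that order, against -0.48, -0.39 and 0.03 over all tested. The median over all miRNAs of Balb/C minus FVB became -0.05 under 75th percentile scaling, and calls went from 15 higher and 84 lower to 31 higher and 16 lower. For FVB129B6 minus FVB they went from 21 higher and 82 lower to 40 higher and 43 lower.

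Balb/C replicate 2 set the error of the lymphoid and leukocyte members. With it, the Balb/C minus FVB difference was 0.48 ± 1.04 (SE) for miR-142-5p and -0.27 ± 1.29 for miR-150. Without it they were -0.77 ± 0.25 and -1.79 ± 0.44, and 32% of 256 tested miRNAs were called. The F-test then called miR-150 and miR-342 (adjusted p = 0.0218 and 0.0367, limma), where 38.7% were called. Relative to FVB, Balb/C glands were then called lower for both (miR-342 by -0.93 ± 0.23), each with adjusted p = 0.0243 (limma). Both were also called lower in FVB129B6 than in FVB glands, miR-150 by -1.84 ± 0.40 (adjusted p = 0.0116, limma) and miR-342 by -0.66 ± 0.21 (adjusted p = 0.0421, limma), where 43% of miRNAs were called. Whether these differences were called depended on the scaling. Another 5 scalings were combined with leaving out that array after the data were seen. None of these combinations called miR-150 or miR-342 in Balb/C minus FVB. In FVB129B6 minus FVB only the one with 75th percentile scaling called miR-150 (-1.47, adjusted p = 0.0470, limma). Between Balb/C and FVB129B6 glands 0% of miRNAs were called without that array, and the members differed by -0.19 for miR-142-5p and 0.04 for miR-150. miR-223 differed by -0.05 ± 0.18 between Balb/C and FVB and by 0.08 ± 0.18 between FVB129B6 and FVB glands in the full set. Relative to the median of all miRNAs, -0.48 and -0.39 here, it lay higher in both, and scalings that moved that median towards 0 moved it up. It was called higher in FVB129B6 than in FVB under scaling on miRNAs above background on all glands (0.61), quantile normalization (0.47) and normexp (0.81), and in Balb/C under normexp (0.79).

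**Figure D4:**
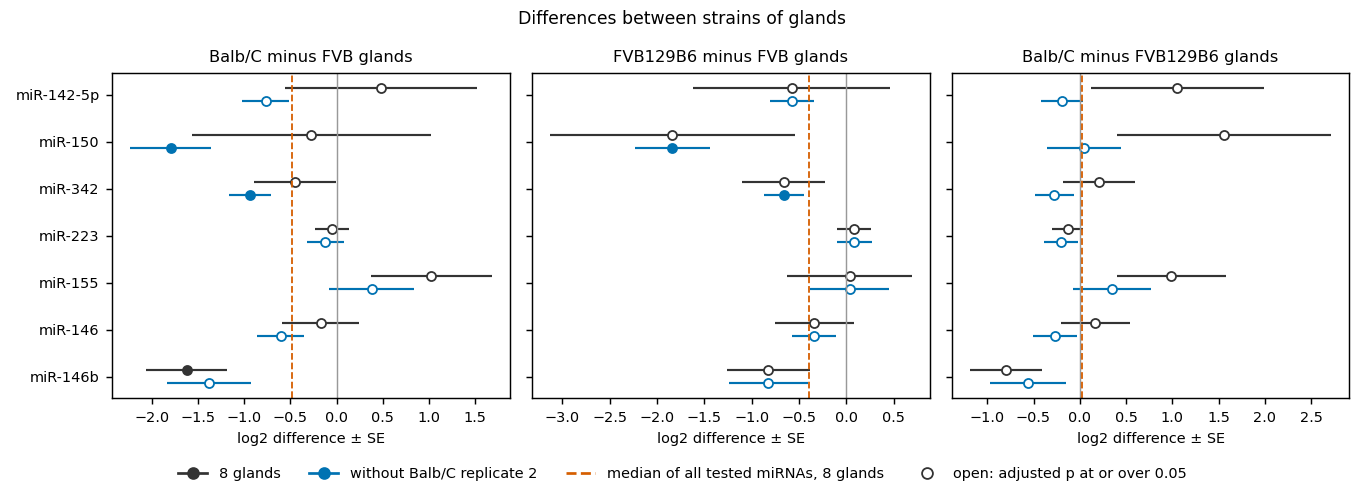
Log2 differences between strains for the 7 members (± SE), with all 8 glands (black) and without Balb/C replicate 2 (blue). Filled points have an adjusted p under 0.05 and the dashed line is the median over all tested miRNAs. The bars of miR-142-5p and miR-150 shorten and their Balb/C means move down without that array, while miR-223 stays near 0 in all 3 panels with array medians, though other scalings raise it over FVB by up to 0.81, and omitting normalization raises it further.

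With the slide row as a block, miR-155 was called higher in Balb/C than in FVB glands (1.24, adjusted p = 0.0288, limma). Without the block the difference was 1.02 ± 0.66 (adjusted p = 0.238, limma). It was 0.38 without Balb/C replicate 2 (adjusted p = 0.532, limma) and 0.30 without FVB replicate 2. Leaving out each array in turn gave 0.30 to 1.75. The order of the strain means was Balb/C, FVB and FVB129B6 from high to low for miR-142-5p, but FVB, FVB129B6 and Balb/C without Balb/C replicate 2, and no neighbours in either order passed the test. For miR-146b the order was FVB, FVB129B6 and Balb/C in both sets, and neither neighbouring pair was called. Summed levels of the skeletal muscle miRNAs, which include miR-1, stood at 3.64 and 6.02 in FVB, 9.17 to 9.97 in Balb/C and 8.45 to 8.62 in FVB129B6 glands. All 3 of them were called higher in both strains than in FVB. Of the 3 other leukocyte miRNAs, 2 were called lower in Balb/C and 1 in FVB129B6 than in FVB, and of the 7 epithelial miRNAs 2 and 0 were. Of the 3 erythroid miRNAs 1 was called lower in Balb/C and 3 in FVB129B6. Of the 6 other inflammatory miRNAs, 4 were called lower and 1 higher in Balb/C, and 3 lower and 1 higher in FVB129B6. The stromal and endothelial miRNAs had 0 calls. Over all miRNAs, 32.2% were called lower and 5.75% higher in Balb/C than in FVB, and 31.4% and 8.05% in FVB129B6. Beside those shares the list counts are descriptions only. How these tissue differences bear on the members was not tested.

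C3(1)/Tag tumors were compared with the mean of the 3 strains of gland. On the tumor arrays only 15 to 64 of 334 miRNAs were well above background. Of the members, miR-150 was so on tumor 1, with 3 of 4 spots, and miR-223 on tumor 3, with 2 of 4 spots. The levels of miR-150 in tumors were 3.15, 1.23 and 0.00, so tumor 1 lay above 5 of the 8 glands (FVB129B6 and Balb/C replicates 1 and 3) and tumors 2 and 3 below all glands. miR-223 stood at 2.01, 0.64 and 1.92, below all glands. For the other 5 members no tumor array gave a level well above background, and their values there ran from -0.34 to 0.62.

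By limma with Benjamini-Hochberg adjustment, 5 of the 7 members were called lower in tumors and 0 higher, where 90.4% of all miRNAs were called, 52.5% lower and 37.9% higher. All 7 passed the filter on background through the glands, where they were measured, so this count is a description and supports no direction for the group. miR-146b was at least 67.5-fold lower in tumors than in glands and at least 119-fold lower than in FVB glands, from measured means of 0.31 in tumors, 7.87 in glands and 8.69 in FVB glands (adjusted p = 2.22e-09 against glands, limma). For these bounds each tumor array was set to the dimmest miRNA that still passed as well above background on it. All bounds in this paragraph hold with array medians only. For miR-146b against glands the bound was 7.20-fold under quantile normalization and 104-fold under normexp. miR-142-5p was at least 6.76-fold lower (means -0.11 and 4.55, adjusted p = 6.13e-05, limma), miR-146 at least 3.39-fold (0.22 and 3.56) and miR-342 at least 2.06-fold (0.07 and 2.84). For miR-223, which was well above background on 1 tumor array, the fitted difference was -2.86 ± 0.27 (SE, adjusted p = 2.06e-06, limma). The other 2 tumor values were not well above background, so its size is not exact. miR-150 (-1.97 ± 0.96, adjusted p = 0.0725, limma) and miR-155 (-0.73 ± 0.43, adjusted p = 0.129, limma) were not called. miR-150 was called without Balb/C replicate 2 (-1.46, adjusted p = 0.0376, where 89.5% of miRNAs were called), without Balb/C replicate 3 (-2.25, adjusted p = 0.0433) and without tumor 1 (-2.82, adjusted p = 0.0292, all limma), and miR-155 without FVB replicate 2 (-0.97, adjusted p = 0.0499, limma). Other settings that called miR-150 lower were normexp (-2.37), no normalization (-3.47) and averaging Balb/C replicates 2 and 3 (-1.85). Its tumor mean lay above its gland mean, uncalled, under 75th percentile scaling (0.62 against -0.39) and quantile normalization (2.98 against 2.69). The same held under scaling on miRNAs above background (-2.77 against -3.33). miR-155 also had called differences of -2.70 under quantile normalization and -2.23 without normalization, where its tumor values were again background readings. Its gland mean lay below the tumor floor used for the bounds with array medians (0.62 against 1.80) and under quantile normalization (0.46 against 3.96). The calls of miR-155 without FVB replicate 2 and under quantile normalization therefore give no direction. No bound is given here without normalization. Against FVB glands alone 5 members were called lower and 0 higher, where 88.1% of miRNAs were called, 52.5% lower and 35.6% higher.

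These directions depend on how the dim tumor arrays are scaled. The median difference over all tested miRNAs was -0.83 with array medians and 2.14 with 75th percentile scaling, under which 172 miRNAs were called higher and 70 lower. miR-146b was called lower in all 7 scalings compared, with a bound of at least 8.59-fold under 75th percentile scaling and 7.20-fold under quantile normalization. The fitted difference of miR-142-5p was below 0 and called in each of them but the ratio of green to red, where it was 1.03 (adjusted p = 0.200, limma). Its bound was at least 1.17-fold under scaling on miRNAs above background, however, and under 75th percentile scaling and quantile normalization its gland mean (0.74 and 3.65) lay below the tumor detection floor (0.95 and 3.96), so no fold can be given there. Under these 3 scalings miR-342 and miR-146 had no bound. The call of miR-146 was lost under 75th percentile scaling (-0.36, adjusted p = 0.224, limma). It was also lost for the ratio of green to red (-0.09, adjusted p = 0.759, limma). miR-223 and miR-342 were called lower with array medians, but stood at 0.12 and 0.21, uncalled, under 75th percentile scaling, and miR-155 had a fitted difference of 2.25 there (adjusted p = 0.000173, limma). Since miR-155 was not well above background in tumors and its means in glands and tumors (-3.20 and -0.95) both lay below the tumor detection floor of 0.95 under that scaling, this difference compares glands with the scaled background of the tumor arrays and gives no direction. Of the 7 epithelial miRNAs, all were called lower in tumors with array medians, and miR-205 was well above background on all 3 tumor arrays, miR-200a on 2, miR-200c and miR-429 on 1 each, and miR-200b, miR-141 and miR-203 on 0. All 3 other leukocyte and all 3 erythroid miRNAs were called lower too, and the erythroid miRNAs were well above background on no tumor array. Of the other inflammatory miRNAs 3 were called lower and 2 higher. The 2 stromal and 3 skeletal muscle miRNAs were called lower, and miR-126-5p, well above background on 0 tumor arrays, was called higher. With array medians 52.5% of all miRNAs were called lower and 37.9% higher, so these list counts are descriptions only.

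**Figure D5:**
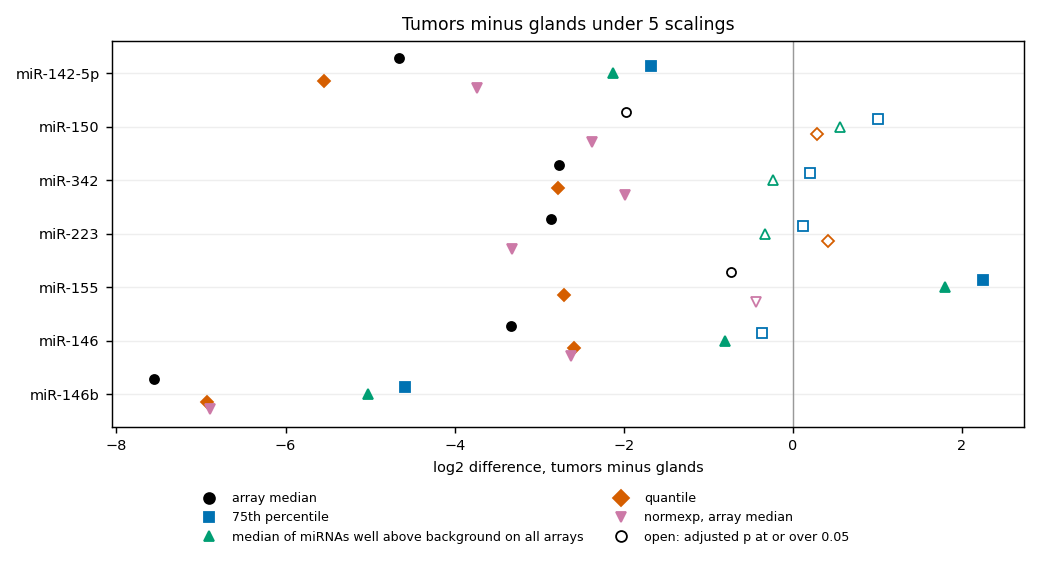
Log2 difference of the 7 members between the 3 tumors and the mean of the 3 gland strains under 5 ways of scaling. Filled symbols have an adjusted p under 0.05. miR-146b lies between -7.56 and -4.58 in all 5, whereas miR-150, miR-223, miR-342 and miR-155 lie on both sides of 0.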

How the data were processed

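Per the labels, total RNA was labeled with Hy3 and/or Hy5, with Hy3 named as the label of each sample, and hybridised to a custom array. The authors deposited spot intensity values of the Feature Extraction program (versions 9.5.1.1 for tumors and 10.5.1.1 for glands), background subtracted and dye normalized, with other columns holding quality flags. The deposited log2 table holds the same green intensities after 1 constant per array (SD of the difference 0). Green intensities were log2 transformed, the median over 1336 mouse spots was subtracted, outlier spots were left out and spots averaged. A miRNA was well above background where 50% of its spots were, and was tested when so on 3 arrays (261 of 334). Groups were taken from the labels and compared with limma 3.58.1 (R 4.3.3), with Benjamini-Hochberg adjustment over all tested miRNAs and a threshold of 0.05. Fits were tested on simulated data. Other work used Python 3.11.15, numpy 2.4.6, pandas 2.3.3 and matplotlib 3.10.9. The number of arrays limits precision.

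Alternatives were other scalings, filters, a floor, spot summaries, normexp (offset 50), the ratio of green to red, blocks, an intensity trend, all 11 arrays in 1 fit, averaging Balb/C replicates 2 and 3, and each array left out. Combinations of a scaling with leaving out Balb/C replicate 2 were chosen after seeing the data. The members and lists were chosen with earlier results of these data known. The named miRNAs are the 7 members, the 2 tested miRNAs most correlated with each over the 8 glands, and list members. Further miRNAs under other observations were named after their values were seen. Of the lists, miR-142-3p, miR-147, miR-126-3p and miR-133a were not matched by name on the array.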

Additional observations from a re-analysis of the deposited data

Results flagged for a closer look

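For miR-142-5p, 1 array stood far from the others. Over the 8 gland arrays of all 3 strains, the gap from Balb/C replicate 2 to the next array was 0.725 of the whole range, above Dixon's critical value of 0.526. Chance would mark about 1 in 20 miRNAs if the 8 arrays were 1 group, which these 3 strains are not. In all 17 of 261 (6.51%) were so marked, 2 of them for a high value on Balb/C replicate 2, 14 for a high value on an FVB array (6 on replicate 1 and 8 on replicate 2) and 1 for a low value on FVB replicate 1. The same ratio was 0.522 for miR-155, 0.507 for miR-146b (high on FVB replicate 2), 0.433 for miR-150, 0.384 for miR-223 (high on FVB129B6 replicate 3), 0.287 for miR-146 and 0.203 for miR-342.

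The red channel, whose RNA is not given in the sources used here, also held signal for all 7 members. Each of miR-142-5p, miR-150, miR-342, miR-223, miR-155, miR-146 and miR-146b was well above background in red on 8 of 8 gland arrays, and miR-150 and miR-223 also on 3 of 3 tumor arrays. Red levels of miR-142-5p over the glands ran from 4.45 to 4.90, with 4.64 on Balb/C replicate 2, which was 0.21 below the mean of the other 2 Balb/C arrays. For miR-150 the red level on that array was 0.37 above them, against 4.56 in green. Balb/C replicate 2 was the highest gland in red for the other 5 members, by 0.43 over the other 2 Balb/C arrays for miR-342, 0.24 for miR-223, 0.15 for miR-155, 0.44 for miR-146 and 0.38 for miR-146b. The SD over the glands was 0.16 in red and 1.27 in green for miR-142-5p, and 0.28 in red and 1.70 in green for miR-150.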

How the results depend on the processing

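Leaving out 1 array at a time gave 0 to 2 members called by the F-test (1 with all arrays), 0 to 2 for Balb/C minus FVB (1), 0 to 2 for FVB129B6 minus FVB (0), 0 for Balb/C minus FVB129B6 and 5 to 6 for both tumor comparisons (5). The F-test called 0 members under 75th percentile scaling, quantile normalization, scaling on miRNAs above background on all arrays, the ratio of green to red, the averaged Balb/C arrays and the replicate block, 2 with the slide row as a block and 3 without normalization. Balb/C minus FVB gave 0 members under the same 4 scalings, 2 with the slide row as a block and 3 (miR-223, miR-155 and miR-146) without normalization, and under normexp its 1 call was miR-223. FVB129B6 minus FVB gave 1 under quantile normalization, normexp and scaling on miRNAs above background on all arrays, and 2 without normalization. Without Balb/C replicate 2, the F-test gave 0 under 75th percentile scaling, quantile normalization and the ratio of green to red, Balb/C minus FVB gave 0 under these and scaling on miRNAs above background, and FVB129B6 minus FVB gave 1 under 75th percentile scaling, quantile normalization, normexp and scaling on miRNAs above background. Tumors minus glands gave 3 under 75th percentile scaling and the ratio of green to red. In each of these settings the 3 included miR-155 with a difference above 0 (2.25 and 1.08), from background readings in tumors. Tumors minus FVB glands gave 2 under 75th percentile scaling and scaling on miRNAs above background and 3 under the ratio. Both tumor comparisons gave 0 where only miRNAs above background on every array were kept, since no member was.

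Differences with a call that changed sign were, for Balb/C minus FVB, miR-223 at 1.30 and miR-146 at 1.18 without normalization and miR-223 at 0.79 under normexp (0.69 also without Balb/C replicate 2). For FVB129B6 minus FVB miR-146 stood at 1.07 without normalization. For tumors minus glands, 75th percentile scaling gave 0.21 for miR-342, 0.12 for miR-223 and 2.25 for miR-155, and scaling on miRNAs above background gave 1.80 for miR-155. Quantile normalization gave 0.42 for miR-223, a floor gave 1.17 for miR-155, and the ratio of green to red gave 1.03 for miR-142-5p and 1.08 for miR-155. The cause was not tested. A further 85 sign changes were of differences called under neither setting. Over all miRNAs, alternatives gave 60 to 195 calls for the F-test (120), 40 to 178 for Balb/C minus FVB (99), 37 to 191 for FVB129B6 minus FVB (103), 0 to 17 for Balb/C minus FVB129B6 (9), 13 to 311 for tumors minus glands (236) and 12 to 305 for tumors minus FVB glands (230). Deviations from group means had a mean correlation of 0.04 over 15 same-numbered pairs of arrays (-0.28 to 0.42). Over 30 other pairs it was -0.02 (-0.51 to 0.28). Such deviations cancel within each group, so these means cannot decide whether replicate numbers pair the arrays. The replicate block changed no other member's call than that of miR-146b in the F-test (adjusted p = 0.0729, limma). On the tumor arrays, signal near the negative controls limits each value of a member.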

Other observations

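On Balb/C replicate 2, miR-363 was well above background with 4 of 4 spots, at a level of -1.12. It was not well above background on Balb/C replicates 1 and 3 (0 and 1 of 4 spots), so its difference from them has no exact size. miR-20b, which was well above background on all 8 glands, was 0.99 above the mean of the other 2 Balb/C arrays (rank 14 of 261), miR-92 0.32, miR-106a 0.14 and miR-19b 0.11. Other miRNAs measured on all 3 Balb/C arrays that exceeded 1 were miR-467* (2.09), miR-466 (1.80), miR-539 (1.17) and miR-29b (1.01). These miRNAs were named after their values were seen.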
